A study of Mus musculus with 3 samples.

Results

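Sterols and fatty acids are built from the same acetyl-CoA, and 30 mouse genes of these 2 routes are described here in pancreatic islet cells. They were taken as a list of symbols, 23 of the sterol route and 7 of the fatty acid route, and all 30 were found among the 32285 genes of the count tables. The list was set by gene function, with earlier results of these data known. Single islet cells of mice 9 months old were profiled in 3 libraries, 1 from wild-type (WT) mice and 1 for each of the genotypes ASF-KO and SC35-KO. The splicing factors SRSF1 and SRSF2 were once called ASF and SC35, and the study asked what they do in islets. The labels give the genotypes as ASF-KO and SC35-KO alone: the exons removed, the cells in which they were removed, the number and sex of the animals and any pooling are not given in the sources used here. The mice had no treatment in the labels other than their age, which all groups share.

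In the sterol route, acetyl-CoA units are joined and reduced to mevalonate, mevalonate is turned into isoprenoid units, and these are condensed to squalene, closed to lanosterol and trimmed to cholesterol. Both routes are switched by SREBP transcription factors, which SCAP escorts out of the endoplasmic reticulum when membrane sterol is low and which INSIG proteins hold back when it is high. In beta cells, which secrete insulin, citrate leaving the mitochondria feeds cytosolic acetyl-CoA through ACLY, and the balance of sterols in the membrane is known to bear on insulin secretion.

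With 1 library a genotype there was nothing to test a difference against, and every ratio below compares libraries. Its 95% interval covers counting error only and leaves out how far mice differ. The deposited counts held 154099078 UMIs (unique molecular identifiers, 1 per captured molecule) in WT, 148320213 with the label ASF-KO and 150116204 with the label SC35-KO. The filter on cells took out 9.53% of barcodes in WT, 16.1% in the library labelled SC35-KO and 40.8% in that labelled ASF-KO, which stood apart. It is the only one of its group, so no result can be given without it. Between 11 and 28 barcodes were shared by a pair of libraries among the cells kept. Targeted genes were not lower in beta cells: with the label ASF-KO, Srsf1 stood at 1.28 times WT, and with the label SC35-KO, Srsf2 stood at 1.30 times WT. The files do not say whether the deleted part of either gene holds its counted 3′ end, so these levels do not check the labels, and directions below rest on the labels as given. Cells were sorted into classes by the share of UMIs from hormone genes or by markers, and 4857, 3973 and 5103 beta cells were found (WT, ASF-KO and SC35-KO, an order kept throughout). All 8 beta markers were highest in that class in every library, though Ins1 and Ins2 among them had set the class. Of 7 alpha markers 5, 6 and 6 were highest in alpha cells. Of 5 delta markers 4 were highest in delta cells of each library, with 1 at 0, and of 4 gamma markers 3, 3 and 4 in gamma cells. All 10 endothelial markers were highest in their class. Gcg, Sst, Ppy and the endothelial markers had likewise set these classes.

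Sterol genes stood higher in beta cells of the library labelled ASF-KO than in WT, relative to the other genes of these cells, and under the label SC35-KO Insig1 stood out among them. Levels are in CPM, UMIs scaled to the same total in every library, over the UMIs left once 7 hormone genes and the mitochondrially encoded genes were taken out. On that scale the 23 sterol genes summed to 1078 CPM in WT, to 1458 with the label ASF-KO and to 1330 with SC35-KO. The ratios to WT were 1.35 (1.34 to 1.37) and 1.23 (1.22 to 1.25), but 1.02 and 0.911 with the hormones left in the total, so that the direction under SC35-KO turned. Insulin took 53.3% of beta-cell UMIs in WT and more with either KO label, 63.6% (ASF-KO) and 63.2% (SC35-KO). That scale multiplied every beta-cell ratio by 0.751 under ASF-KO and by 0.738 under SC35-KO, and moved the median gene to a log2 ratio of -0.41 and -0.43. On it 6 of the sterol genes above WT under ASF-KO (Fdft1, Sqle, Sc5d, Dhcr7, Insig2 and Stard4) lay below WT, and 14 of 16 did so under SC35-KO, all but Idi1 and Insig1. A common factor moves the sterol genes and the median gene alike, so the distance between them is not a check of the scale. On the reported scale the sterol median lay above the median gene by 0.52 in log2 terms for ASF-KO and by 0.23 for SC35-KO.

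Of the 23 sterol genes, 20 had a mean of at least 10 CPM over the 3 libraries and are called measured. In the library labelled ASF-KO, 8 of these 20 stood at 1.5 times WT or more and none at 1.5 times lower or more. Among the 8, Nsdhl reached the measured level only through that library, which leaves 7 others. Over all 9418 measured genes of beta cells, 8.06% were that much higher and 8.61% that much lower. The median log2 ratio was 0.50 for the sterol genes and -0.02 for all genes. In the library labelled SC35-KO, 1 of the 20 was higher and none lower, beside 4.07% and 2.21% of all genes, with medians of 0.25 and 0.02. These counts depend on the scale. With the hormones left in the total 14 of the 23 were measured, of which 2 (Idi1 and Cyp51) stood higher and 2 (Srebf2 and Scap) lower under ASF-KO, beside 2.18% and 33.1% of all genes. Under SC35-KO 1 (Insig1) stood higher and the same 2 lower on that scale, beside 0.482% and 26.8%. Over all 23 genes, low ones included, 20 ratios were above 1 under ASF-KO and 19 under SC35-KO. The libraries labelled KO share the WT library as their control, so their ratios are not independent of each other. The 8 acinar markers, which free RNA of exocrine cells can bring in, summed to 1017, 886 and 193 CPM in beta cells with none of them at 0, and their part in these ratios was not tested.

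**Figure D1:**
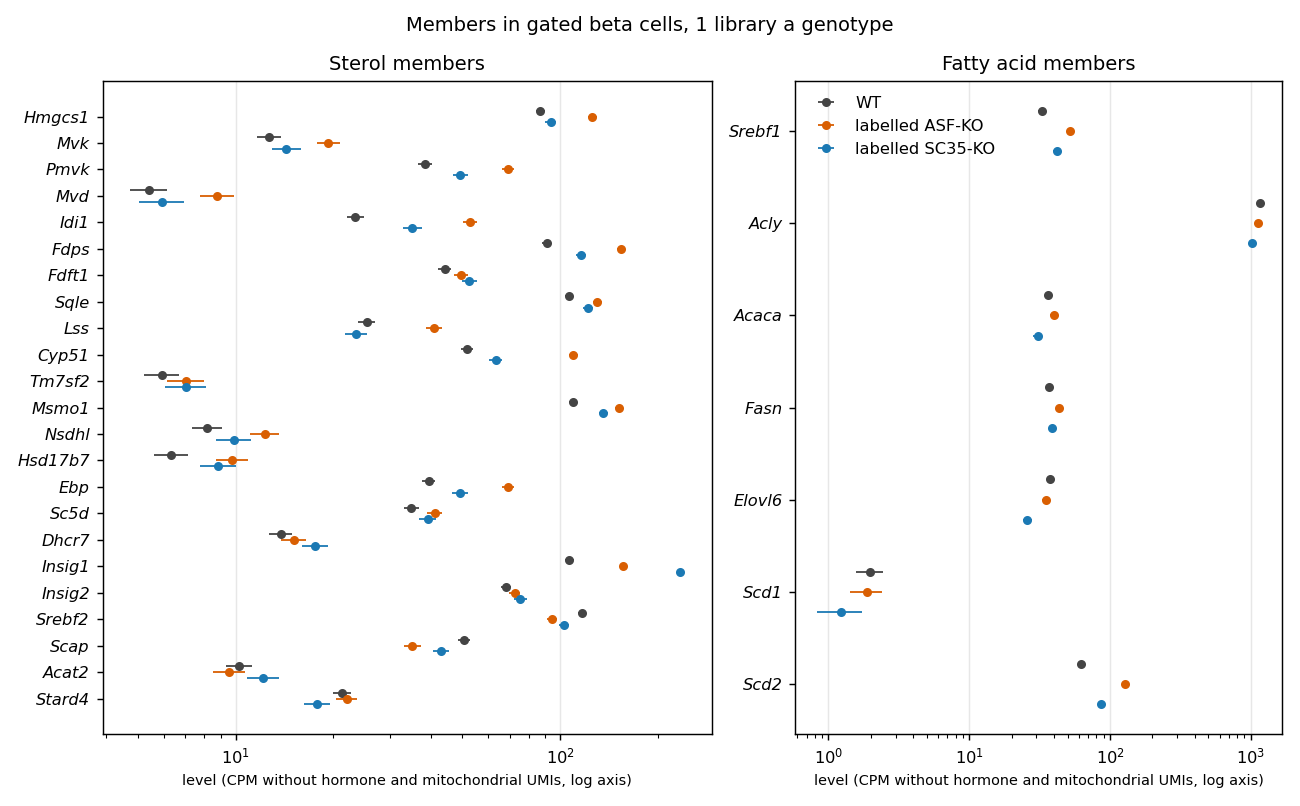
Level of each sterol gene (left) and fatty acid gene (right) in beta cells of 3 libraries, in CPM without hormone and mitochondrially encoded UMIs, on a log axis. Points are the libraries and bars the 95% Poisson interval, which is counting error only. For Idi1, Cyp51 and Scd2 the orange point (ASF-KO) lies farthest to the right, and for Insig1 the blue one (SC35-KO). Levels of different genes are not to be compared, since they are not corrected for how well each is captured.

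The early steps from Hmgcs1 to Fdps gave ratios between 1.45 and 2.26 under ASF-KO. Hmgcs1, whose enzyme makes the HMG-CoA that is reduced to mevalonate, stood at 86.9 CPM in WT, 126 under ASF-KO and 93.5 under SC35-KO, a ratio of 1.45 (1.38 to 1.51) and one of 1.08 (1.02 to 1.13). Mvk and Pmvk, the kinases that phosphorylate mevalonate in turn, had ratios of 1.53 and 1.81 under ASF-KO and of 1.13 and 1.29 under SC35-KO. Mvd, which makes isopentenyl diphosphate, was at 5.41, 8.78 and 5.95 CPM and so below the level called measured. Idi1, which isomerises isopentenyl diphosphate, stood at 23.4 CPM in WT, 52.8 under ASF-KO and 35.1 under SC35-KO. Its ratio of 2.26 (2.08 to 2.44) under ASF-KO was the highest of the 20 measured sterol genes there, and under SC35-KO it lay at 1.498 (1.37 to 1.64), just short of the 1.5-fold line. Fdps, which joins isoprenoid units to farnesyl diphosphate, stood at 91.2, 155 and 116 CPM, with ratios of 1.70 and 1.28. All of these early genes were highest in the library labelled ASF-KO and lowest in WT.

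At the squalene steps the ratios were smaller. Fdft1, squalene synthase, stood at 44.1, 49.4 and 52.5 CPM, ratios of 1.12 and 1.19, though Ctsb lies on its opposite strand and the use of strand in counting is not given in the sources used here. Sqle, squalene epoxidase, stood at 107, 130 and 122 CPM, ratios of 1.22 and 1.14. These were the smallest ratios under ASF-KO among the enzymes from Hmgcs1 to Lss. With the hormones left in the total both genes lay below WT under each label. Lss, which closes the ring to lanosterol, differed between them: it stood at 25.3 CPM in WT, at 40.9 under ASF-KO (ratio 1.62, 1.49 to 1.75) and at 23.5 under SC35-KO (0.929, 0.840 to 1.03).

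Of the 8 genes that turn lanosterol into cholesterol, Cyp51 showed the widest gap. Cyp51, the lanosterol demethylase, stood at 51.7 CPM in WT, 110 under ASF-KO and 63.3 under SC35-KO, ratios of 2.13 (2.02 to 2.25) and 1.22 (1.15 to 1.31). Akap9 overlaps it on the opposite strand. Ebp, the sterol isomerase, stood at 39.3, 69.0 and 49.2 CPM, ratios of 1.75 and 1.25. Msmo1, a methyl sterol oxidase, stood at 110 CPM in WT, 152 and 136 in the others, ratios of 1.39 and 1.24. In these 3 genes the library labelled ASF-KO was highest and that labelled SC35-KO lay between it and WT. Sc5d and Dhcr7, which act late in the route, had ratios of 1.18 and 1.10 under ASF-KO and of 1.12 and 1.27 under SC35-KO, and both lay below WT with the hormones left in the total. Nsdhl had a ratio of 1.504 under ASF-KO, at 8.17, 12.3 and 9.88 CPM. It counted as measured only through the library labelled ASF-KO, so its call carries no weight of its own. Tm7sf2 and Hsd17b7 were under 10 CPM in every library, with ratios of 1.19 and 1.55 under ASF-KO.

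The 4 genes that regulate the route were split, Srebf2 and Scap below WT and both Insig genes above it. Srebf2 encodes SREBP2, the factor that drives sterol genes, and stood at 117 CPM in WT, 94.7 under ASF-KO and 103 under SC35-KO, ratios of 0.808 (0.772 to 0.845) and 0.878 (0.838 to 0.920). Scap, its escort, stood at 50.4, 35.0 and 43.0 CPM, ratios of 0.695 (0.646 to 0.747) and 0.853 (0.793 to 0.917). Both were highest in WT and lowest in the library labelled ASF-KO, the reverse of Idi1 and Cyp51, and neither passed the 1.5-fold line. Both passed it downwards with the hormones left in the total, Srebf2 at 0.607 and 0.648 and Scap at 0.522 and 0.630. Insig1, whose product holds SCAP in the endoplasmic reticulum and whose gene is itself an SREBP target, stood at 107 CPM in WT, 157 under ASF-KO and 235 under SC35-KO. The ratios were 1.47 (1.41 to 1.53) and 2.20 (2.12 to 2.29). It was the only sterol gene past the 1.5-fold line under SC35-KO, and also the gene with the largest gap between the KO labels in that direction. Insig2, which encodes the related protein, stood at 68.2, 72.5 and 75.5 CPM, ratios of 1.06 and 1.11, and lay below WT with the hormones left in. Insig1 brought 9.92% of the sterol UMIs in WT, 10.8% under ASF-KO and 17.7% under SC35-KO. Without it, a choice made after its values were seen, the summed ratio was 1.34 (1.32 to 1.36) under ASF-KO and 1.13 (1.11 to 1.14) under SC35-KO, or 1.01 and 0.832 with the hormones left in.

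The remaining sterol genes stood close to WT. Acat2, the cytosolic thiolase that makes acetoacetyl-CoA, had ratios of 0.932 (0.803 to 1.08) and 1.19 (1.02 to 1.37). Stard4, which carries cholesterol between membranes, had ratios of 1.04 (0.937 to 1.14) and 0.836 (0.746 to 0.936). Under ASF-KO both intervals held 1.

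Promoters of Idi1, Cyp51, Insig1 and Hmgcs1 are printed here because SREBP binds sterol genes together with NF-Y, whose known motif is CCAAT. Hmgcs1 did not pass the 1.5-fold line in beta cells under either label, and some genes that did, such as Pmvk, Ebp and Lss, are not printed. RefSeq sequences (GRCm38.p6) were found for 24 of the 30 genes. The first 250 bases of each sequence, taken to lie before the RefSeq start, were searched on both strands for CCAAT and for TCACNCCAC, a form of the sterol regulatory element. CCAAT was found in 17 of the 19 sterol genes with a sequence, or 89.5%, and in 37.5% of all 27025 genes with one. It was found in 2 of 5 fatty acid genes (Fasn and Srebf1), a share near that of all genes. TCACNCCAC was found in 1 of the 24, Hmgcs1, and in 1.22% of all genes with a sequence. A match is a run of letters and not a measured binding site. In the lines below capitals mark the matches, with CCAAT on the other strand reading ATTGG. They lie at chr13:119690101-119690350 (plus strand) for Hmgcs1, chr13:8885356-8885605 (plus) for Idi1, chr5:4104698-4104947 (minus) for Cyp51 and chr5:28071162-28071411 (plus) for Insig1. In the GENCODE annotation Idi1 starts at 8885501, Cyp51 at 4104746 and Insig1 at 28071363, inside these windows. By those starts the CCAAT matches of Idi1 and Cyp51 lie within the gene, and the matches of Hmgcs1 and Insig1 before it. Which starts these cells used was not tested.
Hmgcs1: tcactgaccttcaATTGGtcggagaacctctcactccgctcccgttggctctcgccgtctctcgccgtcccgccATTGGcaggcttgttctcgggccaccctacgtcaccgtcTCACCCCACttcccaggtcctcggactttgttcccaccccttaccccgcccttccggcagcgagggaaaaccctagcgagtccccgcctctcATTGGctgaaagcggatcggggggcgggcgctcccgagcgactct
Idi1: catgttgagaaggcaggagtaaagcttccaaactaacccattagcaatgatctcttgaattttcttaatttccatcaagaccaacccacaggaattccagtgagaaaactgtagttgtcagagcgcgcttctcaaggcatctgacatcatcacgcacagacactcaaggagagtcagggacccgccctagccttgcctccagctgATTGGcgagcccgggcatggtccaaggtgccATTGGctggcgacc
Cyp51: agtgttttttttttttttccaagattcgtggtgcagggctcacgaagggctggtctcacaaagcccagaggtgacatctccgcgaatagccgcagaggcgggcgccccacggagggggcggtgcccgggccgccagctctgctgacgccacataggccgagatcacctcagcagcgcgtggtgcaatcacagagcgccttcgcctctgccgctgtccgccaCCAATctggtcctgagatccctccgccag
Insig1: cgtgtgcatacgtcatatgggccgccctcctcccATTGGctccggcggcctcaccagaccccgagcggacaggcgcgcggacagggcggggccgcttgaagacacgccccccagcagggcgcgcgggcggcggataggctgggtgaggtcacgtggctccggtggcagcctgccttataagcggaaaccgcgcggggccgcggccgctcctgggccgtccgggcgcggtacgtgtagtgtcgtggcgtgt
Hmgcs1 held 3 copies of CCAAT and 1 of TCACNCCAC, Idi1 held 2 copies of CCAAT, and Cyp51 and Insig1 held 1 each. The genes with 1 copy in this window include both Cyp51, at 2.13 times WT under ASF-KO, and Insig1, at 2.20 times WT under SC35-KO.

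The fatty acid genes were split. Acly, which cuts citrate to give cytosolic acetyl-CoA, stood at 1156 CPM in WT, 1132 under ASF-KO and 1015 under SC35-KO, ratios of 0.979 (0.966 to 0.993) and 0.878 (0.865 to 0.891). Under ASF-KO it lay above WT, at 1.05, with median-of-ratios scaling. It brought 84.7% of the UMIs of this group in WT, so the summed level followed it. The group summed to 1364, 1432 and 1240 CPM, with ratios of 1.05 (1.04 to 1.06) under ASF-KO and 0.909 (0.896 to 0.921) under SC35-KO, and of 0.789 and 0.671 with the hormones left in the total. Without Acly the other 6 genes summed to 208.1, 299.9 and 224.8 CPM, ratios of 1.44 (1.40 to 1.48) and 1.08 (1.05 to 1.12), or 1.08 and 0.798 with the hormones left in. Acly was taken out after its share had been seen. Most of the rise of the other 6 under ASF-KO lay in Scd2 (62.6 CPM in WT, 128 under ASF-KO) and Srebf1 (32.7 and 52.1). Acaca (36.4 and 39.8), Fasn (37.0 and 43.5) and Elovl6 (37.5 and 35.0) moved less.

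Of the 6 measured fatty acid genes, Srebf1 and Scd2 passed the 1.5-fold line under ASF-KO, none passed it downwards there and none passed it either way under SC35-KO. All genes did so in 8.06% of cases upwards and 8.61% downwards under ASF-KO, and in 4.07% and 2.21% under SC35-KO. Scd2 alone stood higher under ASF-KO with the hormones left in (1.53, against 1.20 for Srebf1), beside 2.18% of all genes, and Acly, Acaca and Elovl6 stood lower under SC35-KO, beside 26.8%. On the reported scale the median log2 ratio of these 6 was 0.18 under ASF-KO and -0.06 under SC35-KO, beside -0.02 and 0.02 for all genes. Scd2, a desaturase that makes monounsaturated fatty acids, stood at 62.6 CPM in WT, 128 under ASF-KO and 86.1 under SC35-KO, ratios of 2.04 (1.94 to 2.14) and 1.37 (1.30 to 1.45). Srebf1, which encodes SREBP1, stood at 32.7, 52.1 and 42.0 CPM, ratios of 1.59 (1.48 to 1.71) and 1.28 (1.19 to 1.39), with Rai1 on its opposite strand. Srebf1 thus stood above WT in each library labelled KO and Srebf2 below it, though Srebf1 lay below WT under SC35-KO with the hormones left in. Fasn, which builds palmitate, had ratios of 1.18 and 1.05, and Acaca, which makes its malonyl-CoA, had ratios of 1.09 and 0.843. Both were below WT under each label with the hormones left in. Elovl6, which elongates palmitate, was at 37.5 CPM in WT, 35.0 under ASF-KO and 25.9 under SC35-KO, and its ratio of 0.690 (0.630 to 0.756) was the lowest of the measured sterol and fatty acid genes under SC35-KO. Scd1, the other desaturase listed, was under 2 CPM in beta cells of every library, and none of its ratios is read.

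The 4 other cell classes with at least 100 cells in every library, alpha, delta, gamma and endothelial, were read in the same way. They come from the same libraries as the beta cells and share their free RNA, so they are not replicates. Sterol genes summed to 447, 588 and 435 CPM in alpha cells and to 548, 738 and 596 in delta cells. They summed to 630, 946 and 775 CPM in gamma cells and to 406, 615 and 479 in endothelial cells. Under ASF-KO the summed ratio was 1.31 (1.26 to 1.37) in alpha, 1.35 (1.25 to 1.44) in delta, 1.502 (1.37 to 1.64) in gamma and 1.52 (1.38 to 1.67) in endothelial cells, and it stayed above 1 with the hormones left in, at 1.22, 1.23, 1.65 and 1.45. Under SC35-KO it was 0.973 (0.934 to 1.01) in alpha, 1.09 (1.02 to 1.16) in delta, 1.23 (1.13 to 1.34) in gamma and 1.18 (1.05 to 1.32) in endothelial cells, and 0.865, 1.03, 1.02 and 1.14 with the hormones left in. On the scale without hormones the library labelled ASF-KO was the highest of the 3 in all 5 classes. The library labelled SC35-KO lay between it and WT in all but alpha cells. With the hormones left in, the beta-cell ratios were 1.02 (ASF-KO) and 0.911 (SC35-KO), so beta cells under SC35-KO lay below WT there too.

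**Figure D2:**
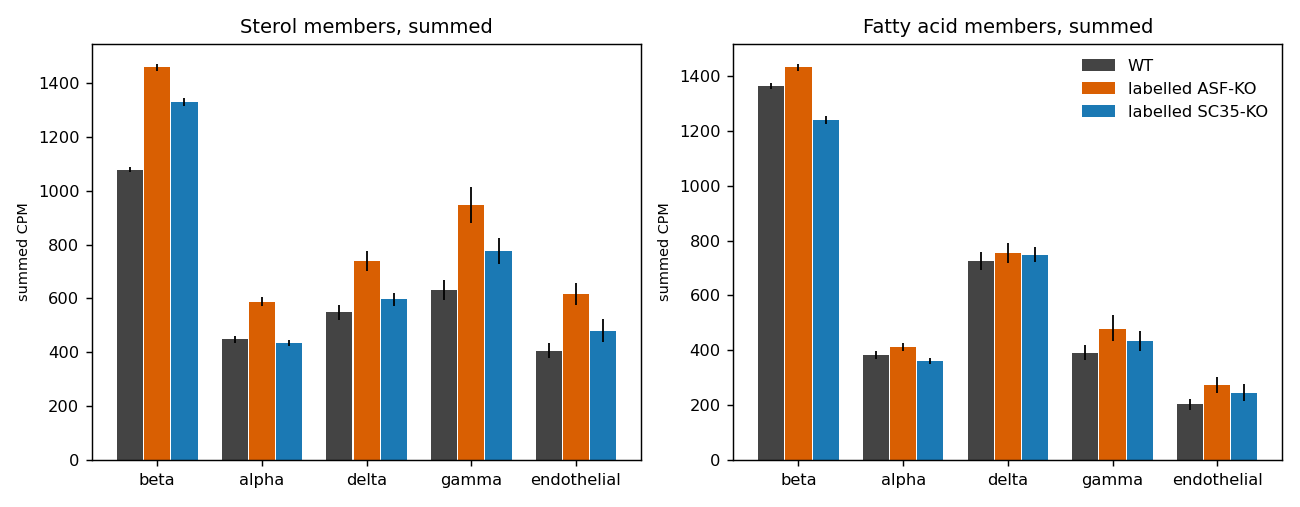
Summed level of the sterol genes (left) and fatty acid genes (right) in 5 cell classes of 3 libraries, in CPM without hormone and mitochondrially encoded UMIs, with 95% Poisson intervals (counting error only). The sterol bar of the library labelled ASF-KO is the tallest in each class, while the fatty acid bars of beta, alpha and delta cells are close to each other.

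Single sterol genes past the 1.5-fold line under ASF-KO numbered 5 of 17 measured in alpha cells, 7 of 16 in delta, 12 of 19 in gamma and 9 of 16 in endothelial cells, and none was lower by as much in these classes. Of these, Mvk and Idi1 in alpha, Idi1 in delta, Nsdhl and Acat2 in gamma, and Fdft1 and Cyp51 in endothelial cells reached the measured level only through the library labelled ASF-KO, so their calls carry no weight of their own. Over all measured genes 8.39%, 11.5%, 20.7% and 14.2% were that much higher, and 3.96%, 5.4%, 7.1% and 8.55% that much lower. The median log2 ratios of the sterol genes were 0.39, 0.44, 0.66 and 0.76, against 0.13, 0.13, 0.23 and 0.11 for all genes. The delta value was lost with Leiden clusters as classes (0.12 against 0.12 for all genes) and at a 50 CPM minimum (0.071 against 0.13), and the endothelial one was 0.37 with Leiden clusters. With the hormones left in the total the higher ones under ASF-KO numbered 2 of 13, 3 of 15, 8 of 14 and 8 of 13 measured, beside 4.33%, 5.99%, 29% and 10.5% of all genes. Under SC35-KO, on the scale without hormones, the higher ones numbered 0, 1, 3 and 6 and the lower ones 0, 0, 0 and 3 in the same order of classes. All genes stood higher in 2.15%, 6.93%, 13.8% and 12% of cases there and lower in 2.94%, 2.79%, 4.99% and 7.38%. With the hormones left in, sterol genes under SC35-KO numbered 0, 1, 2 and 5 higher and 1, 1, 0 and 2 lower. All genes then stood higher in 0.654%, 4%, 2.78% and 10% of cases and lower in 6.9%, 3.91%, 10.1% and 7.96%. On the reported scale the sterol medians under SC35-KO were 0.03, 0.07, 0.25 and 0.14, against -0.03, 0.10, 0.16 and 0.11 for all genes. All 4 lay within 0.1 of the median gene on this setting, but the distance was -0.21 in delta and 0.26 in endothelial cells with Leiden clusters, and 0.26 in gamma cells with cells weighted equally. Gamma and endothelial cells had the fewest UMIs and the widest intervals.

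Idi1 and Cyp51 stood past the line in all 5 classes under ASF-KO, as did Srebf1 and Scd2 of the fatty acid genes. Among all 6809 genes measured in every class, 34 did so, or 0.499%. Idi1 counted as measured in alpha and delta cells, and Cyp51 in endothelial cells, only through the library labelled ASF-KO. Cyp51 and Scd2 stood past the line in all 5 classes also with the hormones left in the total, beside 0.207% of 4830 genes, while Idi1 was under the measured level in alpha and delta cells and Srebf1 stood at 1.20 in beta, 1.43 in alpha and 1.47 in delta cells. Idi1 stood at 6.40 CPM in WT alpha cells against 20.6 under ASF-KO, a ratio of 3.22 (2.37 to 4.43), and its ratio was 2.77 in delta, 2.55 in gamma and 2.90 in endothelial cells. Cyp51 stood at 15.5 CPM in WT alpha cells against 40.6, a ratio of 2.61 (2.14 to 3.21), with 2.28 in delta, 3.61 in gamma and 2.08 in endothelial cells. Under SC35-KO neither gene passed the line upwards in any class: outside beta cells Idi1 had ratios from 0.854 to 1.39 and Cyp51 from 0.664 to 1.11. Scd2 had ratios under ASF-KO of 1.75 in alpha, 1.85 in delta, 3.38 in gamma and 3.01 in endothelial cells. Srebf1 had 1.54, 1.61, 2.46 and 1.82. No gene of the list stood past the line in all 5 classes under SC35-KO, beside 0.382% of all genes higher and 0.69% lower.

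**Figure D3:**
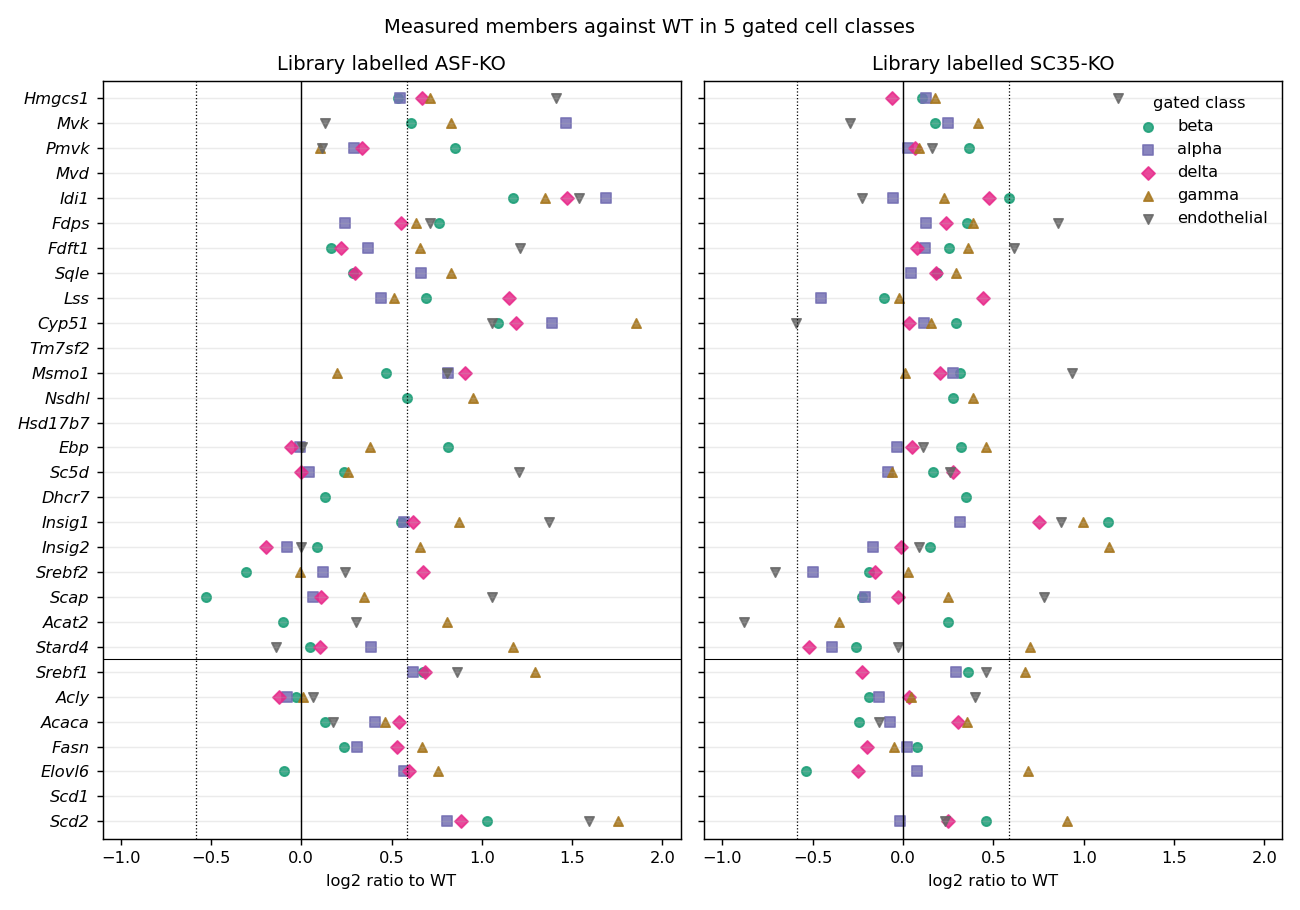
Log2 ratio to WT of each measured gene in 5 cell classes, for the library labelled ASF-KO (left) and that labelled SC35-KO (right). Dotted lines mark 1.5-fold, and sterol genes lie above the horizontal line and fatty acid genes below it. Under ASF-KO all 5 points of Idi1, Cyp51, Srebf1 and Scd2 lie right of the upper dotted line, and under SC35-KO 4 of the 5 points of Insig1 do.

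Insig1 passed the line under SC35-KO in 4 of 5 classes. It stood at 29.0 CPM in WT delta cells against 48.7 (ratio 1.68, 1.29 to 2.21), and its ratio was 1.99 (1.36 to 2.95) in gamma, 1.83 (1.20 to 2.79) in endothelial and 1.24 (1.04 to 1.49) in alpha cells. Under ASF-KO its ratio was 1.48 in alpha, 1.53 in delta, 1.83 in gamma and 2.59 in endothelial cells. Between the KO labels, beta cells held less under ASF-KO than under SC35-KO, 157 CPM against 235. Elsewhere the values were 32.4 against 27.1 CPM in alpha, 64.2 against 45.4 in endothelial, 44.4 against 48.7 in delta and 46.0 against 50.1 in gamma cells. The Poisson intervals of each of these 4 pairs overlapped, which does not show that the levels of a pair are equal. The gamma order turned with the hormones left in (22.6 against 18.5 CPM).

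Scap and Srebf2, below WT in beta cells under ASF-KO, had ratios near or above 1 in the other classes. Scap had ratios of 1.05 in alpha, 1.08 in delta, 1.27 in gamma and 2.08 (1.26 to 3.47) in endothelial cells, against 0.695 in beta cells. Srebf2 had 1.09, 1.60 (1.24 to 2.05), 0.994 and 1.18, against 0.808. Scap stood at 0.975 in alpha and 0.987 in delta cells with the hormones left in. The differences between classes were not tested. Under SC35-KO Srebf2 was lower than WT in alpha cells, at 33.2 against 46.9 CPM (0.709, 0.617 to 0.815), and in endothelial cells, at 22.7 against 37.2 CPM (0.611, 0.365 to 0.986).

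Among fatty acid genes outside beta cells, Acly again stayed near WT under ASF-KO while the others summed higher, but unevenly. In endothelial cells Scd2 stood at 27.7 CPM in WT and 83.6 under ASF-KO, and Srebf1 at 14.4 and 26.1. Acaca stood at 11.9 and 13.4 CPM there, and Fasn (6.94 and 7.46) and Elovl6 (7.43 and 6.71) were below the measured level. Acly had ratios under ASF-KO of 0.948 in alpha, 0.918 in delta, 1.01 in gamma and 1.05 in endothelial cells. Without it, the others summed to ratios of 1.44 (1.32 to 1.57), 1.64 (1.42 to 1.89), 1.995 (1.59 to 2.50) and 1.83 (1.48 to 2.28). Under SC35-KO those sums had ratios of 1.02, 1.06, 1.38 and 1.03, or 0.908, 1.005, 1.15 and 0.996 with the hormones left in. Past the line under ASF-KO were 2 of 6 measured genes in alpha, 3 of 6 in delta, 4 of 6 in gamma and 2 of 4 in endothelial cells, and under SC35-KO 3 of 6 in gamma cells and none in the other 3 classes. All measured genes were that much higher in 8.39%, 11.5%, 20.7% and 14.2% of cases under ASF-KO and in 13.8% in gamma cells under SC35-KO. Elovl6 stood past the line in delta and gamma cells under ASF-KO, at 1.51 and 1.69, and at 0.935 in beta cells.

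Free RNA from beta cells differed between the libraries. Insulin, which endothelial cells should lack, took 2.41% of UMIs in WT endothelial cells, 5.63% under ASF-KO and 4.76% under SC35-KO. If beta-cell RNA came in with that insulin, it would account for 4.92%, 6.75% and 6.53% of the sterol UMIs of endothelial cells and for 12.5%, 14.95% and 11.9% of their fatty acid UMIs. With that amount subtracted, the sterol ratio of endothelial cells was 1.49 under ASF-KO and 1.16 under SC35-KO. Acinar markers summed to 7860 CPM in WT gamma cells, 881 under ASF-KO and 136 under SC35-KO, and to 902, 1672 and 180 CPM in endothelial cells, with none or 1 of the 8 at 0. Their part in the gamma and endothelial ratios was not tested.

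Relative to the UMIs left without hormones, beta cells held the highest level of most of these genes among the 5 classes of each library. In WT this was so for 18 of 23 sterol genes, and it was so for 16 of them in all 3 libraries and for 6 of 7 fatty acid genes in all 3. This rests on the scale: per UMI of all genes, hormones included, beta cells were highest for 7 of 23 sterol genes in WT, 2 under ASF-KO and 5 under SC35-KO, and for 2, 0 and 0 of the fatty acid genes. Acly stood at 1156 CPM in WT beta cells, 603 in delta, 303 in gamma, 283 in alpha and 125 in endothelial cells, and that order held with intervals apart save between gamma and alpha. Acly, with the hormones left in, stood at 446 CPM in WT beta and 439 in WT delta cells, and delta cells were above beta cells under ASF-KO (369.5 against 328) and SC35-KO (425 against 289). On the scale without hormones, Sqle stood at 107 CPM in WT beta cells and at 2.48 in WT endothelial cells, the latter from 5 UMIs. Msmo1 stood at 110 CPM in WT beta cells, 55.5 in gamma, 29.7 in delta, 17.4 in alpha and 12.4 in endothelial cells.

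A few genes had another order on the same scale. Stard4 and Scd1 were highest in endothelial cells in all 3 libraries. Stard4 stood at 57.5, 52.2 and 56.2 CPM there against 21.3, 22.1 and 17.8 in beta cells, and passed the 1.5-fold line under neither label in these classes. In gamma cells it stood at 9.96, 22.4 and 16.2 CPM, past the line under both labels. Scd1 stood at 9.41, 5.22 and 1.97 CPM in endothelial cells, from 19, 7 and 2 UMIs. Among the classes with enough cells in WT alone, WT B cells held Scd1 at 45.6 CPM (29.8 to 66.8, from 26 UMIs) against 1.97 in WT beta cells. Pmvk, Ebp, Insig2 and Acat2 were highest in gamma, endothelial, delta and endothelial cells of WT, in that order.

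Cell by cell, few beta cells lacked sterol UMIs in any library. Each beta cell was thinned to 2000 UMIs of genes other than the hormone and mitochondrially encoded ones, which left out 257, 145 and 285 shallower cells, to make the libraries comparable. The values thus carry the scale of the summed ratios above, whose direction under SC35-KO turned with the hormones left in. A thinned cell held 2.14 sterol UMIs on average in WT, 2.95 under ASF-KO and 2.60 under SC35-KO. Cells with none made up 15.02%, 7.81% and 10.9% (2.45%, 1.43% and 1.94% before thinning). The variance over the mean was 1.37, 1.45 and 1.53, where counting error alone gives a value of 1, and 0.993, 1.11 and 0.969 in alpha cells. For the fatty acid genes the mean was 2.71, 2.93 and 2.49 UMIs and cells with none made up 8.74%, 7.37% and 10.7%.

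**Figure D4:**
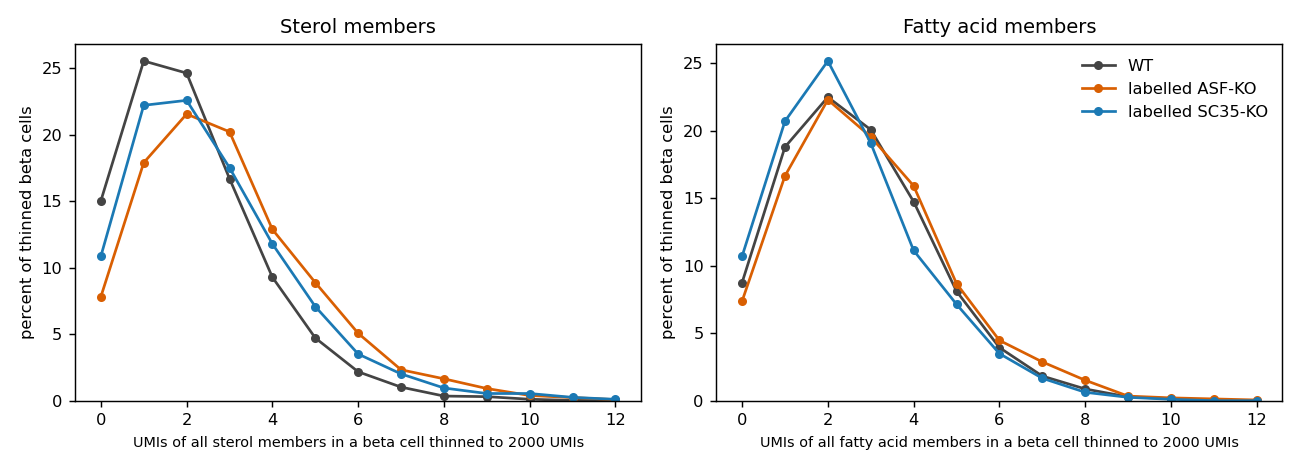
Percent of beta cells (vertical axis) by the number of UMIs of the sterol genes (left) or fatty acid genes (right) in each cell after thinning to 2000 UMIs without hormone and mitochondrially encoded ones, for 3 libraries. The sterol curve of the library labelled ASF-KO is shifted to more UMIs as a whole, with 7.81% of cells at 0 against 15.02% in WT, and the fatty acid curves lie closer together.

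The order of the libraries by share of thinned cells was that by summed level in 18 of 23 sterol and 5 of 7 fatty acid genes, and another in Hmgcs1, Mvd, Fdft1, Tm7sf2, Acat2, Elovl6 and Scd1. Hmgcs1 was found in 15.57% of WT cells, 21.5% under ASF-KO and 15.55% under SC35-KO. Cyp51 was found in 9.91% of thinned WT beta cells (9.06% to 10.8%), 19.1% under ASF-KO and 11.7% under SC35-KO. Idi1 was found in 4.37%, 9.74% and 6.14%. Insig1 was found in 18.2% of WT cells and 34.0% under SC35-KO, with 957 of 3828 cells under ASF-KO, and Scd2 in 11.4%, 21.8% and 15.3%. Acly was found in 87.3%, 87.2% and 84.2% of cells. Before thinning the shares for Scd2 were 35.1%, 53.5% and 29.9%, in cells with medians of 22377, 26579 and 17315 UMIs.

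A further 39 genes that process SREBP, make other isoprenoids, move sterol or use fatty acids were listed by role, and 38 of them were in the files. In beta cells 34 were measured. Under ASF-KO 1 stood higher by 1.5-fold and 3 lower, and under SC35-KO 1 higher and 1 lower, with median log2 ratios of -0.07 and -0.02. Of all measured genes 8.06% stood higher and 8.61% lower under ASF-KO, and 4.07% and 2.21% under SC35-KO. Abca1, which exports cholesterol from cells, was the only one lower under both labels. It stood at 302 CPM in WT, 150 under ASF-KO and 199 under SC35-KO, ratios of 0.496 (0.480 to 0.513) and 0.657 (0.637 to 0.679). Osbp, a sterol carrier, had ratios of 1.68 and 1.30. Slc25a1, which exports citrate from mitochondria, stood at 160, 95.9 and 138 CPM, ratios of 0.599 and 0.863. Nr1h3, which encodes the sterol-sensing receptor LXR alpha, had ratios of 1.28 and 1.59. The proteases that cut SREBP in the Golgi, Mbtps1 and Mbtps2, had ratios of 0.819 and 0.717 under ASF-KO and of 0.882 and 1.06 under SC35-KO. Cyb5r3, which passes electrons to sterol and fatty acid desaturases, had ratios of 0.685 and 0.807. Dhdds, an enzyme of dolichol synthesis, had 1.45 and 1.09. Acsl3, which activates fatty acids, had 1.35 and 0.918, and Lpin1, which makes diacylglycerol, had 0.741 and 0.919. All these ratios and counts are on the scale without hormones. The factors of 0.751 (ASF-KO) and 0.738 (SC35-KO) apply to them too. With the hormones left in, Nr1h3 under ASF-KO and Osbp, Dhdds and Mbtps2 under SC35-KO thus fall below WT.

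On GRCm38, the genes named most often above lie as follows in the GENCODE annotation. Idi1 (ENSMUSG00000058258) lies on chromosome 13 from 8885501 to 8892451 and Cyp51 (ENSMUSG00000001467) on chromosome 5 from 4081145 to 4104746. Insig1 (ENSMUSG00000045294) lies on chromosome 5 from 28071363 to 28078662, Scd2 (ENSMUSG00000025203) on chromosome 19 from 44293674 to 44306864, and Srebf1 (ENSMUSG00000020538) on chromosome 11 from 60199089 to 60222581. Acly (ENSMUSG00000020917) lies on chromosome 11 from 100476353 to 100528000. Whole genes were counted, exons and UTRs together, and starts in this annotation can differ from those of RefSeq.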

How the data were processed

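Per the labels' protocols, islets were freed with collagenase, picked by hand, dissociated and run on a Chromium droplet kit that tags 3′ ends. The authors deposited raw UMI counts per gene and barcode. Tools and build in the submitters' processing notes are mm10, Seurat, STAR and Cell Ranger 5.0.0, without their roles. Barcodes needed 500 genes, 1000 UMIs and at most 20% mitochondrial UMIs. Scrublet in scanpy 1.11.5 marked 291, 319 and 886 doublets in WT, ASF-KO and SC35-KO, which were removed, leaving 8997, 7082 and 10799 cells with medians of 14300, 16965 and 9871 UMIs.

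Beta cells had at least 20% of UMIs from Ins1 and Ins2, and alpha, delta and gamma cells at least 4% from Gcg, Sst or Ppy. Cells passing several gates were left out, and other classes needed 3 markers and more than any other class. These gates were set after the data were seen. UMIs were summed per class and library and scaled to CPM, the same total in each library, after Ins1, Ins2, Iapp, Gcg, Sst, Ppy, Pyy and mitochondrially encoded genes were taken out. Ratios to WT carry exact conditional binomial 95% intervals, levels exact Poisson and shares Clopper-Pearson intervals, all for counting error only. P-values are not given, since a group of 1 library leaves nothing to test against. Genes count as measured at a mean of 10 CPM or more and as higher or lower from 1.5-fold. The intervals were tested on simulated data.

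The 30 genes and the other lists were chosen with earlier results of these data known. All 30 may be named. Of the other pathway genes the rule takes, per role, the 2 measured ones with the largest absolute log2 ratio to WT in beta cells of either library labelled KO. Any past 1.5-fold in both is taken too. One listed gene, Spring1, was not matched. Alternatives were other scalings, cell filters, doublets kept, Leiden clusters as classes (23 clusters, resolution 1.0), equal weight per cell, a 50 CPM minimum and a 2-fold line. The work used scipy 1.17.1 and numpy 2.4.6 under python 3.11.15, with leidenalg 0.10.2, pandas 2.3.3 and matplotlib 3.10.9.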

Additional observations from a re-analysis of the deposited data

How the results depend on the processing

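In beta cells each ratio of a single measured gene stayed within 1.5-fold of the reported one under all 7 alternatives that could move it (182 values for each KO label). For the other scalings this was fixed in advance. They multiply every ratio by a common factor (0.751 and 0.738 with the hormones left in), too near 1 to take a gene out of that band. Staying in the band also does not mean that a direction held. Sums and counts moved with the scale. With the hormones left in the total, sterol genes had summed ratios of 1.02 (ASF-KO) and 0.911 (SC35-KO) and fatty acid genes of 0.789 and 0.671. On that scale 2 sterol genes stood higher and 2 lower under ASF-KO (8 and 0 reported), 2 lower under SC35-KO (0), 1 fatty acid gene higher under ASF-KO (2) and 3 lower under SC35-KO (0). Median-of-ratios scaling gave sums of 1.45, 1.20, 1.12 and 0.887, and a looser cell filter 1.33 and 1.03 for sterol and fatty acid genes under ASF-KO. Scrublet marked 1 cell of the ASF-KO library under that filter, so doublets were not removed there. Under SC35-KO 2 sterol genes stood higher instead of 1 with a stricter filter, doublets kept, Leiden classes or cells weighted equally. A 50 CPM minimum left 4 sterol and 1 fatty acid gene higher under ASF-KO, and a 2-fold line 2 and 1, since fewer genes can pass. Of the genes past the 1.5-fold line, Acat2 turned in direction under ASF-KO in gamma cells (log2 ratio -0.60, Leiden classes). Under SC35-KO, Stard4 in gamma cells (-0.18) and Cyp51 in endothelial cells (0.91) turned with Leiden classes. Fdft1 in endothelial cells (-0.25) turned there with the stricter filter. Nearer to WT, many beta-cell directions turned with the hormones left in, as given above. With median-of-ratios scaling Acly and Elovl6 lay above WT in beta cells under ASF-KO, at 1.05 and 1.001. The sterol median of endothelial cells under ASF-KO was -0.066 at 50 CPM, where fewer genes were left, and in alpha cells no sterol gene was left. In delta cells under ASF-KO it was 0.12 with Leiden classes and 0.071 at 50 CPM (0.44 reported). The causes of the others were not tested. Depth limits gamma and endothelial cells most. No paired analysis was possible because each group has 1 library.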

Other observations

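Macrophages, T cells, B cells, pericytes and duct cells had enough cells in WT alone (132, 113, 124, 101 and 117), so only WT levels are given for them. B cells held Fdps and Srebf2 at 78.96 CPM (45 UMIs each) and Cyp51 at 38.6, the highest Cyp51 level outside beta cells in WT. Macrophages held Ebp, the sterol isomerase, at 64.3 CPM (45.5 to 88.3), against 39.3 in beta cells. Pericytes held Insig2 at 98.4 CPM (62.4 to 148, from 23 UMIs), against 68.2 in beta cells, and no Insig1 UMI, with an interval up to 15.8 CPM. Duct cells held Scd2 at 74.6 CPM (61.4 to 89.8) and Fdft1 at 45.0, against 62.6 and 44.1 in beta cells, and their acinar markers summed to 70216 CPM, whose part in these levels was not tested. Acly was far lower in all 5 than the 1156 CPM of beta cells, from 57.9 in B cells to 257 in pericytes. All these levels are on the scale without hormones. With the hormones left in, beta cells held Cyp51 at 19.9 CPM, Ebp at 15.2, Scd2 at 24.2 and Acly at 446.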
